A study of Mus musculus with 2 samples.

Results

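Cd209 lectins and the genes read with them here as epineurial macrophage genes were followed cell by cell in immune cells of the mouse dorsal root ganglion (DRG), the cluster of sensory neuron cell bodies beside the spinal cord. The set holds 10 of the 16819 gene symbols in the deposited matrix of 2668 cells: Cd209a, Cd209b, Cd209d, Cd209f, Cd209g, Clec10a, Fcna, Folr2, Lyve1 and Timd4. The genes were listed by name, and each cell was placed by a gate on C1q: cells in which C1qa, C1qb and C1qc together made up at least 0.5% of the UMIs (unique molecular identifiers, each marking a captured transcript) are called macrophages, and the rest are called cells below the gate. The members other than Cd209a, 9 genes, were also counted in each cell. Because the members were chosen by their UMI counts in the deposited cells, which all carry a male hashtag, the contrast of the gate in male mice is given as a description. Tests were made on female mice, on genes outside the list, and between the sexes, where those male cells form an arm.

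The cells were CD45+ DAPI- leukocytes sorted from DRG of naive wild-type BALB/cAnNRj mice, 3 male and 3 female, with no transgene and no treatment in any group; no label gives the age of these mice, and the methods of the study give only a minimum age for all its mice. DRG of several spinal levels were pooled within a mouse and digested with collagenase and dispase, the cells of each mouse were marked with a hashtag antibody, and all were run in a single lane of the 10x 3′ v3 assay. Male mice 1, 2 and 3 gave 481, 772 and 1415 cells and female mice 1, 2 and 3 gave 382, 313 and 378, with 23403638 UMIs in the male and 7964428 in the female cells and medians per mouse of 7236.5 to 9137 UMIs per cell. The gate called 183, 519 and 782 cells macrophages in the male mice (1484 in all, against 1184 below it) and 211, 177 and 222 in the female mice (610, against 463). Few cells lay at its edge: 14 male cells held 0.25% to 0.5% C1q and 19 held 0.5% to 0.75%, and the female counts were 10 and 11. The data hold no position within the tissue, so the word epineurial names the list and was not checked.

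The CD209 family consists of C-type lectins related to human DC-SIGN, which bind sugars such as mannose and fucose on microbes and on host glycoproteins. In the mouse the family has expanded by gene duplication; Cd209a is widely used as a marker of type 2 conventional dendritic cells (cDC2), whereas Cd209b (SIGN-R1) is best known from macrophages of the splenic marginal zone. Clec10a is a lectin for galactose-type sugars, Fcna encodes ficolin A, a soluble pattern recognition protein of the lectin pathway of complement, Folr2 is the beta folate receptor, Lyve1 binds hyaluronan, and Timd4 binds phosphatidylserine on dying cells; Folr2, Lyve1 and Timd4 are commonly read as marks of long-lived resident macrophages.

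The 5 Cd209 members lie in a cluster on chromosome 8. In GENCODE M21 (GRCm38), Cd209a is at chr8:3743397-3748984, Cd209d at chr8:3871824-3878555, Cd209b at chr8:3917655-3926844 and Cd209f at chr8:4102787-4105835, all on the minus strand, and Cd209g is at chr8:4134098-4137707 on the plus strand. With Cd209c and Cd209e between them, the 7 genes span 394311 bases. Clec10a (chr11:70156197-70170834, plus strand) and Timd4 (chr11:46810800-46844332, plus strand) share chromosome 11, Folr2 (chr7:101839988-101857194, minus strand) and Lyve1 (chr7:110850607-110863239, minus strand) share chromosome 7, and Fcna is at chr2:25624666-25628030 on the minus strand. All 10 are annotated as protein coding.

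Cd209f and Cd209g, which are described together below, are near copies of each other over part of their sequence. Of the 50-base windows of annotated Cd209f transcripts, 29.8% also occur in Cd209g (646 windows, 16.6% of those of Cd209g), and no window of any other member occurs in another listed gene or in Cd209c or Cd209e. Within the last 500 bases of the transcripts, where a 3′ assay reads, 37.1% of the Cd209f windows and 0% of the Cd209g windows are shared. How the counting split reads between them is uncertain, and each value of Cd209f and Cd209g below carries that limit. Their upstream sequences, shown because both genes were detected in the same few cells, share a stretch of 154 identical bases (RefSeq, GRCm38.p6), whereas the longest identical stretch between any other pair of the 5 Cd209 promoters is 7 to 12 bases. The part upstream of the protein-coding transcript annotated in GENCODE M21 is given 5′ to 3′ on the strand of each gene, with the bases of the shared stretch that fall within it in capitals (83 of Cd209f, chr8:4105836-4106014, minus strand, and 84 of Cd209g, chr8:4134486-4134651, plus strand). The Cd209g bases lie within the annotated gene, since a retained-intron transcript without a coding sequence begins upstream of them, at the gene start given above:
Cd209f: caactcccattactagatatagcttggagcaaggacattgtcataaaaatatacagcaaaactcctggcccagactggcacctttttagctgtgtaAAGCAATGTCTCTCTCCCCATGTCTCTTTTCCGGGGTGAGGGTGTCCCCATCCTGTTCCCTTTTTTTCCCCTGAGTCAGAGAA
Cd209g: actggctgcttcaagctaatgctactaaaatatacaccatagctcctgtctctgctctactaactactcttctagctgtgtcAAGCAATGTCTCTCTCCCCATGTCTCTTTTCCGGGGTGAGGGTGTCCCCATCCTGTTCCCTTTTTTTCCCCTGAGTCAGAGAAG
Of the 10 members, 8 had a promoter in the RefSeq table.

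Cd209a, the cDC2 gene of the family, had most of its UMIs outside the macrophages. In male mice 1, 2 and 3, 90.2%, 71.6% and 69.9% of its UMIs were in cells below the gate, 75.9% of the pooled UMIs. Its level there was 154, 223 and 82.9 counts per 1000000 UMIs (CPM) in the male mice, against 26.0, 40.5 and 25.5 CPM in their macrophages, so the groups did not overlap. By cells the order was reversed, with 401 UMIs in 128 of 1484 macrophages (8.63%) and 1260 UMIs in 76 of 1184 cells below the gate (6.42%). In female mice 1, 2 and 3 the level was 226, 243 and 279 CPM below the gate and 89.5, 56.5 and 90.6 CPM in macrophages, again without overlap. There the difference was tested over all genes: Cd209a was lower in macrophages by edgeR's quasi-likelihood test, with a log2 fold change of -1.53 (SE 0.16, adjusted p = 6.0e-06, lower in 3 of 3 mice). Of the 8207 genes tested, 21.9% were higher and 23.6% lower in macrophages, so a call in either direction was common in this contrast, and 8 of the 10 members passed its filter on low counts.

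Cd209d was the second member that was not higher in macrophages. In the macrophages of male mice it had 5, 46 and 133 UMIs (3.02, 11.9 and 16.9 CPM), and below the gate 50, 41 and 58 UMIs (19.4, 23.1 and 10.3 CPM). Male 3 alone was higher in macrophages, and the groups overlapped. In each of the 3 female mice the level was lower in macrophages (30.0, 4.64 and 16.6 CPM against 65.7, 19.4 and 31.5 CPM), with a fitted log2 fold change of -1.04 (SE 0.48). The mouse as a replicate block compares the macrophages of each mouse with its own cells below the gate. With it the fold was -1.04 (SE 0.23), and without the filter on low counts it was -0.99 (SE 0.27). By DESeq2 it was -1.04, with a wider SE of 0.84. Only 2 of the 3 macrophage sums of Cd209d reached that filter, so it entered the fit through the sums below the gate, where it was higher. The fold is therefore given as a size, without a test.

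Cd209b, the SIGN-R1 gene, was higher in macrophages. Male macrophages held 17, 90 and 145 UMIs (10.3, 23.2 and 18.4 CPM) in 75 cells, and male cells below the gate 5, 28 and 17 (1.94, 15.7 and 3.02 CPM) in 11 cells. Macrophages were higher in each male mouse, but male 2 below the gate was above male 1 macrophages. Female macrophages had 42.04, 26.3 and 38.8 CPM and female cells below the gate 0, 17.4 and 12.6 CPM, with no overlap. The fitted log2 fold change in female mice was 2.07 (SE 0.51, higher in 3 of 3 mice), 1.23 without female 1 and 2.94 without female 2. Only 2 of the 3 sums below the gate reached the filter on low counts, so Cd209b entered the fit through its macrophage sums. The fold is therefore given as a size, without a test. By DESeq2 the fold was 1.96, with a wider SE of 1.26.

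Cd209f and Cd209g were found almost only in macrophages, in very few cells with many UMIs each. Cd209g was detected in 12 of 1484 male macrophages (0.809%) with 298 UMIs, 24.8 per positive cell and up to 108 in a cell, and in 0 of 1184 male cells below the gate, which allows a share of up to 0.253%. The UMIs were spread unevenly over mice: 1, 34 and 263 in the macrophages of male 1, 2 and 3, and 97, 20 and 14 in those of female 1, 2 and 3. Cd209f followed the same order with 3, 31 and 155 UMIs in male and 56, 21 and 6 in female macrophages, in 15 and 7 cells, against 2 UMIs in all male cells below the gate and 0 in all female ones. In female mice the pooled ratio of Cd209g, 131 UMIs against 1, was 96.8 (95% counting interval 17.1 to 3851). A counting interval treats UMIs as independent and leaves out the spread between cells and mice. The 131 UMIs lay in 6 cells, with 97 of them in 2 cells of female 1, and the interval of female 3 alone was 1.46 to 405. Cd209g passed the filter on low counts through its macrophage sums alone, so the fit is no test of it, and Cd209f did not pass. Against an assumed 3 counts below the gate, Cd209f was 20.4-fold higher in macrophages over the female mice together and 1.37-fold higher in female 3. The lower end of its pooled 95% counting interval, with the same limit, was 16.3.

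Of the other receptors, Folr2 separated the groups most. It was detected in 461 of 1484 male macrophages (31.1%) with 108, 85.1 and 145 CPM, and in 14 male cells below the gate with 1.55, 2.81 and 1.06 CPM. In female mice the levels were 76.3, 78.9 and 161 CPM against 8.50, 1.02 and 3.602 CPM, a fitted log2 fold change of 4.58 (SE 0.44). Only 1 of the 3 sums below the gate reached the filter on low counts, so the fold is given as a size, without a test. B cell-like cells, which should lack Folr2, carried a UMI in 6 of 166 male cells (3.61%) at a median of 3412 UMIs per cell, against 8621.5 in male macrophages. Of the 14 male cells below the gate with a UMI (1.18%), 5 were B cell-like, 6 neutrophil-like and 2 in macrophage cluster 1, whereas 0 of 103 monocyte-like cells had one, which allows up to 2.91%; the source of these UMIs was not tested.

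Lyve1 was sparse and uneven among mice. Its macrophage levels were 7.85, 9.28 and 25.4 CPM in male and 7.81, 19.3 and 73.4 CPM in female mice, against 1.16, 1.12 and 8.34 CPM and 5.41, 3.06 and 2.70 CPM below the gate. In female mice its fitted log2 fold change was 3.22 (SE 0.82), with most of its macrophage UMIs in female 3 (119 of 157), and it was 1.67 without that mouse. No sum below the gate reached the filter on low counts, so it too is given as a size, without a test. Of the 52 male UMIs below the gate, 30 came from 1 cDC2-like cell of male 3.

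Clec10a and the soluble lectin Fcna were also higher in macrophages, but Clec10a was not limited to them. Clec10a had 41.7, 59.6 and 43.4 CPM in male macrophages and 30.2, 34.3 and 18.1 CPM in male cells below the gate, without overlap. In female mice it had 81.7, 36.3 and 89.4 CPM against 20.9, 14.3 and 33.3 CPM, a log2 fold change of 1.73 (SE 0.33, edgeR adjusted p = 8.2e-04). Fcna was rarer, in 42 male macrophages (14.5, 4.64 and 16.3 CPM) and 6 male cells below the gate. Female mice had 72 Fcna UMIs in macrophages, 60 of them in female 3, and 4 below the gate, a ratio of 13.3 (95% counting interval 4.97 to 50.1). That interval too leaves out the spread between cells, and 1 cell of female 3 held 40 of the UMIs. The gene did not pass the filter of the fit.

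No difference of Timd4 across the gate was called, on few counts. In female mice it had 34 UMIs in macrophages and 27 below the gate. Only 2 of the 3 macrophage sums and 1 of the 3 sums below the gate reached the filter on low counts, so a difference could be missed. The levels were 15.1, 4.90 and 5.21 CPM in male macrophages and 2.32, 8.43 and 4.08 CPM below the gate, and 4.20, 7.73 and 10.5 CPM against 7.73, 9.19 and 7.20 CPM in female mice. Its log2 fold change in female mice was 0.015 (SE 0.38, edgeR adjusted p = 0.98), a value that turned negative at a gate of 0.25%, without female 3 and with the mouse as a block.

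**Figure D1:**
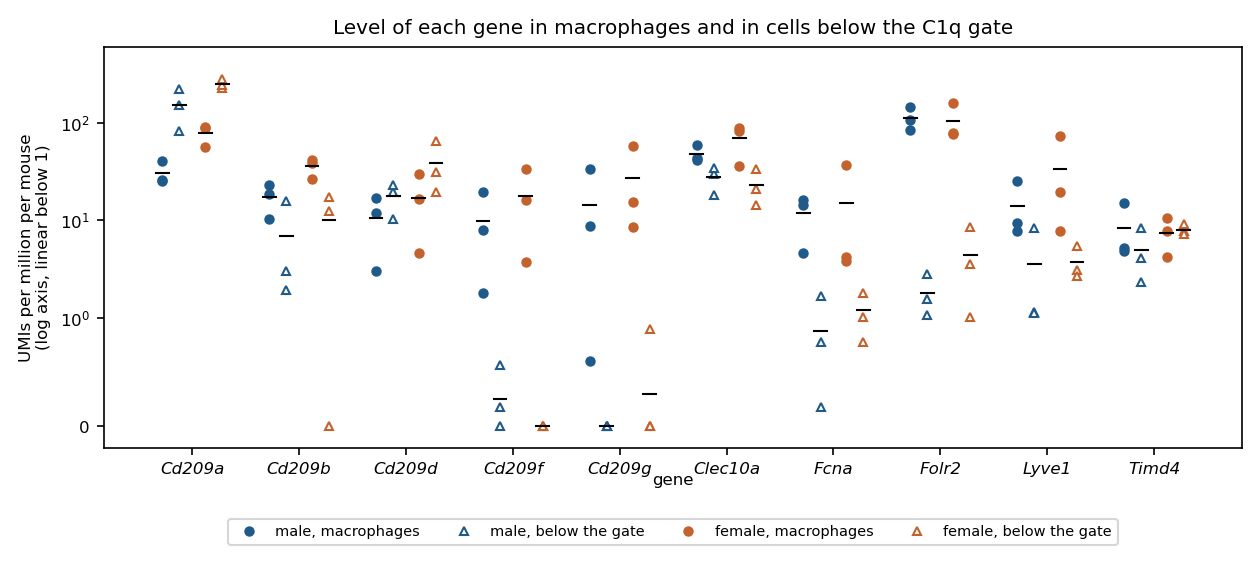
Level of the 10 genes in CPM (log axis, linear below 1) for each mouse, with filled circles for macrophages, open triangles for cells below the C1q gate, blue for male and orange for female mice, and bars for means of 3 mice. Cd209a lies higher below the gate in both sexes, Folr2, Cd209f and Cd209g lie higher in macrophages, and the symbols of Timd4 overlap.

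The pathway and marker lists read beside the members showed what else changed across the gate in female mice. The lists were chosen with earlier results of these data known, so their counts are descriptions. Of 18 genes listed for resident macrophages, 17 were higher in macrophages, among them Cd163 (3.42), Mrc1 (4.32) and Fcrls (2.88). The median log2 fold change of the list was 3.55 against -0.017 over all genes tested. The other gene, Retnla, which the paper cites as an early gene of monocytes newly arrived in tissue, was at -1.21 (edgeR adjusted p = 0.22). Of 18 listed lectins and ficolins outside the members, 14 passed the filter, 9 were higher (Cd302, Clec12a, Clec2d, Clec4a1, Clec4a2, Clec4a3, Clec4b1, Clec4n and Lman2) and 4 lower (Clec4d, Clec4e, Fcnb and Klrb1b), with a median of 0.69. Genes that respond to tissue dissociation (Fos, Jun, Egr1 and others) were higher in macrophages for 7 of 8; the cells were digested at 37C, and the part of dissociation in these levels was not tested.

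To resolve the cells below the gate, male and female cells were clustered without the 10 genes, and clusters were named from marker genes. Cluster 9, with 51 male and 45 female cells, had 8 of 10 cDC2 markers raised, Flt3, Irf4, Ccl17, Mgl2, Napsa, H2-DMb2, Dpp4 and Klrd1, and is called cDC2-like; it held C1q at a median of 0.0116% of UMIs. Among its male cells with Cd209a, 21 of 46 also carried a UMI of Cd163 and 26 of 46 one of Fcrls, both macrophage genes. The cluster was deep, at a median of 13220 UMIs per cell, and the source of these UMIs was not tested. Cluster 13 (50 male and 21 female cells) had all 10 cDC1 markers raised and is called cDC1-like. Most macrophages fell in cluster 0 (987 cells, led by Ccl24, Egfl7, Pla2g2d and Igf1) and cluster 1 (855 cells, led by Tnfsf9, Tnip3 and Col14a1).

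The cDC2-like cells carried most of the Cd209a. In male mice 46 of 51 cells had a UMI, and the level was 1510, 1964 and 1382 CPM (1618 ± 306, SD, n = 3), compared with 39.8 ± 9.84 CPM in macrophage cluster 0 and 30.8 ± 15.9 CPM in cluster 1. This cluster, 1.63% to 2.91% of the cells of a male mouse, held 64.8% of all male Cd209a UMIs. In female mice 39 of 45 cells had a UMI, at 1287, 1424 and 1296 CPM. Every mouse of either sex was thus far above its macrophages. The cDC1-like cells, by contrast, had Cd209a in 6 of 50 male cells, at 11.5, 186 and 13.4 CPM, a spread over mice too wide to place them above or below macrophages.

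Cd209d and, less so, Cd209b followed Cd209a into the cDC2-like cells. Cd209d was detected in 22 of 51 male cells at 158, 139 and 112 CPM, against 10.6 ± 4.13 CPM in macrophage cluster 0 and 15.2 ± 14.0 CPM in cluster 1, and in 22 of 45 female cells at 401, 115 and 140 CPM. Of the 22 male cells with Cd209d, 21 also had Cd209a, as did 21 of the 22 female ones. Cd209b was found in 8 of 51 male and 9 of 45 female cells, all 17 of them also with Cd209a, at levels (24.7, 151 and 49.6 CPM in male mice) that overlapped those of macrophage cluster 0 (15.9, 24.2 and 21.0 CPM). Cd209f and Cd209g were not detected in the 51 male cDC2-like cells, which allows a share of up to 5.88%, and 1 UMI of Cd209g was found in the 45 female ones. By cell type the family showed 3 patterns, with Cd209a and Cd209d highest in cDC2-like cells, Cd209b in both, and Cd209f and Cd209g in macrophages.

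The other members differed as much in where they lay. Clec10a was detected in 28 of 51 male cDC2-like cells (93.8, 240 and 195 CPM) and in 30 of 103 male cells of the monocyte-like cluster (118, 67.1 and 35.6 CPM), above or within the range of macrophage cluster 0 (33.3, 70.1 and 60.1 CPM). With each cell thinned to equal depth, as described below, Clec10a was in 11 of 51 male cDC2-like cells (21.6%) against 7.70% of male macrophages. In female mice the order was reversed, with 2 of 45 cDC2-like cells (4.44%) against 10.3% of macrophages. Timd4 was highest in cDC1-like cells, in 16 of 50 male and 11 of 21 female cells, at 22.9, 66.9 and 53.6 CPM in male and 118, 91.7 and 116 CPM in female mice. In macrophages it was 2.0 ± 0.46 CPM in cluster 0 and 15.6 ± 12.6 CPM in cluster 1 of male mice; the 3 male mice of cluster 1 (30.1, 9.84 and 6.83 CPM) were all above those of cluster 0, as was Fcna (28.8, 10.5 and 29.6 CPM against 1.59, 0.947 and 8.19 CPM). In female mice neither gene kept that order, with Timd4 at 7.51 ± 2.96 and 7.69 ± 3.34 CPM and Fcna at 12.5 ± 11.7 and 16.7 ± 25.2 CPM in clusters 1 and 0. Folr2 was at 118 CPM in both clusters of male mice and at 99.7 ± 41.0 CPM in cluster 11, 76 male macrophages led by replication genes, in which no cell carried Cd209a, which allows up to 3.95%.

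**Figure D2:**
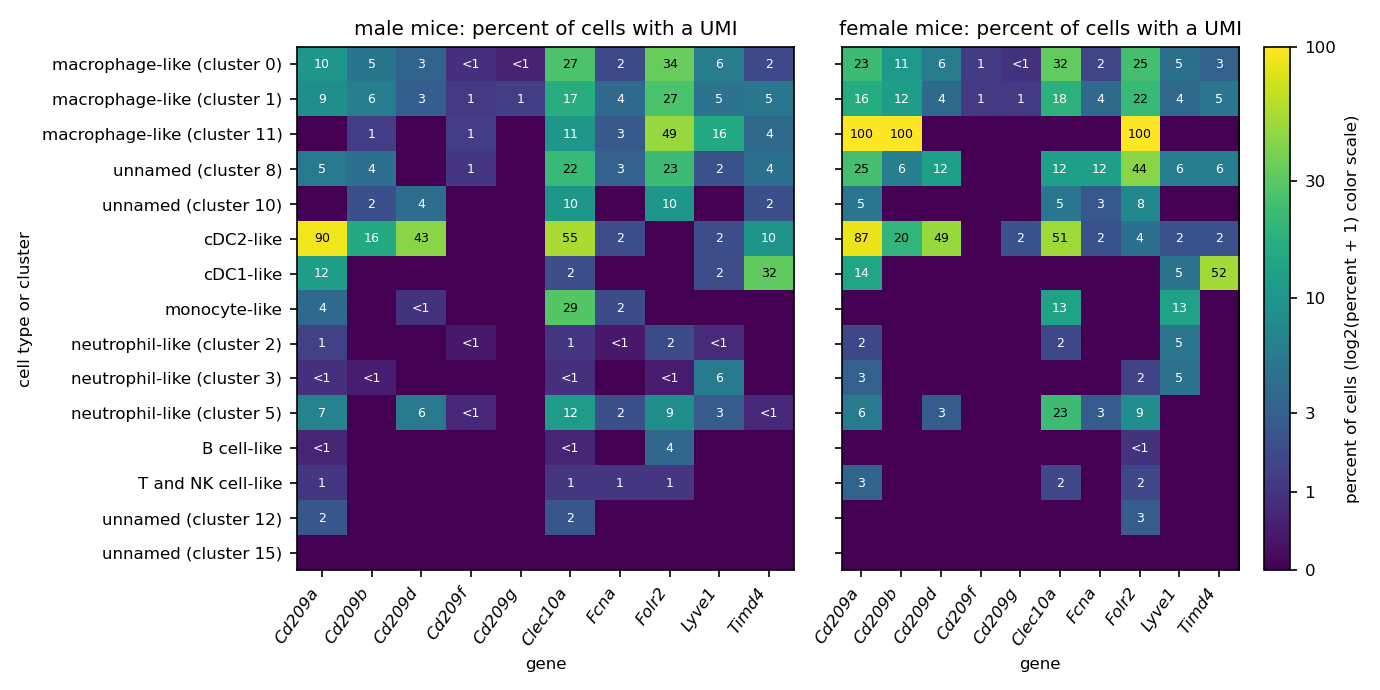
Percent of cells with at least 1 UMI of each gene (columns) in each cluster (rows) for male mice (left) and female mice (right), with color on a log2(percent + 1) scale; blank cells are 0, and cluster 11 holds 1 female cell. Cd209a and Cd209d peak in the cDC2-like row, Timd4 in the cDC1-like row, and Folr2 in macrophage rows.

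At equal depth Cd209a was found in a larger share of macrophages than of B cell-like cells and of neutrophil-like cluster 2, but not of cDC1-like cells in male mice. The cDC1-like cells, thinned as below, carried it in 3 of 50 male (6.0%) and 1 of 21 female cells (4.76%). After each cell was thinned to 2000 UMIs, 61 of 1454 male macrophages (4.20%) and 56 of 592 female macrophages (9.46%) still carried Cd209a, against 0 of 155 male B cell-like cells, which allows up to 1.94%, 0 of 100 female ones, which allows up to 3.00%, and 3 of 242 male cells of the neutrophil-like cluster 2 (1.24%). Most of the 10 cDC2 markers were rare in macrophages with Cd209a, but not all. Their shares are given without thinning, and the cDC2-like cluster was deeper (median 13220 UMIs per cell) than male macrophages (8621.5). The cytokine receptor gene Flt3 was found in 4 of 128 male and 1 of 115 female macrophages with Cd209a, against 17 of 46 and 14 of 39 cDC2-like cells with Cd209a and 0.59% of male macrophages without it. Ccl17, a chemokine gene of cDC2, was found in 0 of 128 against 10 of 46. Zbtb46, Irf4, Dpp4, Klrd1 and Cd24a were each in 1.56% to 5.47% of the male macrophages with Cd209a, against 10.9% to 52.2% of those cDC2-like cells. Dpp4 was in 2.34% of the male macrophages with Cd209a against 0.44% of those without, whereas Irf4 (3.13% against 4.13%) and Cd24a (5.47% against 12.2%) were rarer with it. Napsa was in 10.2% of the male macrophages with Cd209a, more than the 2.06% of macrophages without Cd209a and less than the 100% of cDC2-like cells. Mgl2 (84.4%) and H2-DMb2 (57.0%) were common in macrophages, also in those without Cd209a (74.9% and 53.5%). Macrophages with Cd209a had a median C1q share of 1.53% of UMIs, near the 1.65% of other male macrophages, and Cd163 in 70.3% of cells against 60.03% in male mice and in 64.3% against 57.0% in female mice.

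Within macrophages, most pairs of members were found in the same cell more often than their shares predicted, 43 of 45 pairs in male and 44 of 45 in female mice, to very different extents. The expected count is the product of both shares in each mouse, summed over mice; deeper cells raise every such count, and the ratios are descriptions over cells that share libraries. Cd209f and Cd209g were together in 9 of the 12 male cells with Cd209g and in 5 of 6 female ones, where 0.13 and 0.071 cells were expected. Cd209d was together with Cd209g in 9 male cells, 29.2 times the expected count, and with Cd209a in 28, 7.04 times. After thinning to 2000 UMIs, 43 of 45 pairs in male and 37 of 45 in female mice were above the expected count. Pairs of genes outside the list were not counted. In the thinned cells Cd209f was still found in 6 of the 8 male and 4 of the 4 female cells with Cd209g. Cd209a and Cd209b were together in 28 male cells (4.13 times) and 35 female cells (2.75 times).

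At full depth, Folr2 was found with Fcna and Lyve1 above the expected count, with Cd209a near it and with Cd209b below it. It was in 36 of the 42 male and 16 of the 16 female cells with Fcna (2.47 and 4.02 times expected), and in 62 of the 85 male and 19 of the 24 female cells with Lyve1 (2.15 and 3.13 times). With Cd209a it was together at the expected count, in 36 male cells against 37.3 expected and 28 female cells against 27.4. With Cd209b it was together in fewer cells than expected in both sexes, 16 against 22.2 in male and 10 against 16.1 in female mice. At 2000 UMIs per cell the male direction turned, with 7 cells against 5.15 expected for Cd209b and 12 against 8.19 for Cd209a, whereas female mice had 1 against 4.003 and 6 against 6.71, so no order is read for these pairs. Below the gate, the pairs were those of the cDC2-like cells: 27 of 31 male cells with Cd209d, 9 of 11 with Cd209b and 36 of 81 with Clec10a also had Cd209a.

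Counted over the 9 genes other than Cd209a, 743 of 1484 male macrophages had none, 495 had 1, 186 had 2, and 60 had 3 or more, 40 of them exactly 3 (4.04%, 95% Clopper-Pearson interval 3.1% to 5.17%, which covers counting error only). The 60 cells came as 7, 15 and 38 from male 1, 2 and 3 (3.83%, 2.89% and 4.86% of their macrophages), and 22 were left without male 3. Below the gate 6 of 1184 male cells had 3 or more, all 6 of them cDC2-like. Female macrophages had 28 of 610 (4.59%, 3.07% to 6.57%), as 6, 8 and 14 cells (2.84%, 4.52% and 6.31%), and below the gate 5 of 463, of which 4 were cDC2-like. The share per mouse was 4.56% ± 1.73 in female and 3.86% ± 0.985 in male mice (SD, n = 3 each), a difference of 0.698 percentage points that was smaller than the SD of either sex. It is given as a description, since the male count was part of how the members were chosen and an exact permutation test of 3 against 3 mice cannot go below p = 0.1. Without female 3, the difference was -0.177.

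The count depended on depth and on the threshold. Male macrophages with 3 or more of the genes had a median of 10618.5 UMIs against 8554.5 in the others, and female ones 9276 against 7692.5. When each cell was thinned to 2000 UMIs, 15 of 1454 male and 8 of 592 female macrophages had 3 or more (30 and 18 shallower cells left out), and 0 of 1116 male and 0 of 430 female cells below the gate, which allows up to 0.269% and 0.698%. By cluster, 28 of the 60 male cells were in cluster 0 and 22 in cluster 1, 4 in cluster 11, 2 in unnamed cluster 8 (led by interferon-response genes), 1 in unnamed cluster 10 and 3 in neutrophil-like clusters. Scrublet, a doublet caller, marked 47 of 4111 barcodes (1.14%) before selection of hashtag singlets. Separately, the hashtags called 269 of the barcodes doublets, and these were removed.

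At the far end stood a small set of macrophages with 5 or more of the 9 genes, 12 male and 7 female cells, and most of the Cd209f and Cd209g was found in them. The 12 male cells were 0 from male 1, 2 from male 2 and 10 from male 3, and 4 of them had all 9 genes, as did 1 female cell. They held 86.4% of the male UMIs of Cd209f, 99.0% of Cd209g and 59.7% of Fcna, but only 4.94% of Cd209a, 14.1% of Folr2 and 14.9% of Clec10a. The cells were chosen by genes that include these except Cd209a, so the choice itself raises the shares of the counted genes. The 7 female cells held 72.3% of Cd209f, 83.3% of Cd209g and 78.9% of Fcna. A cell of male 3 with 14101 UMIs, the richest in Cd209g, carried 108 UMIs of Cd209g, 56 of Cd209f, 28 of Cd209a and 18 each of Cd209b and Cd209d. Scrublet marked 0 of the 19 cells, but it marked only 9 of all kept cells (0.241%). Flt3 was at 0 in all 19, but it was also rare in macrophages without Cd209a (0.59% of male and 1.41% of female ones). Neither zero separates the 19 cells from other macrophages. The 19 cells were not uniform. Of the 19 cells, 3 had no UMI of any Cd209 gene and reached the count through the other 5 members, one of them, a cell of female 3, with 40 UMIs of Fcna and 45 of Lyve1. The MHC class II gene H2-Aa was at 89 to 147 UMIs in 4 cells and at 1 to 32 in the other 15.

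**Figure D3:**
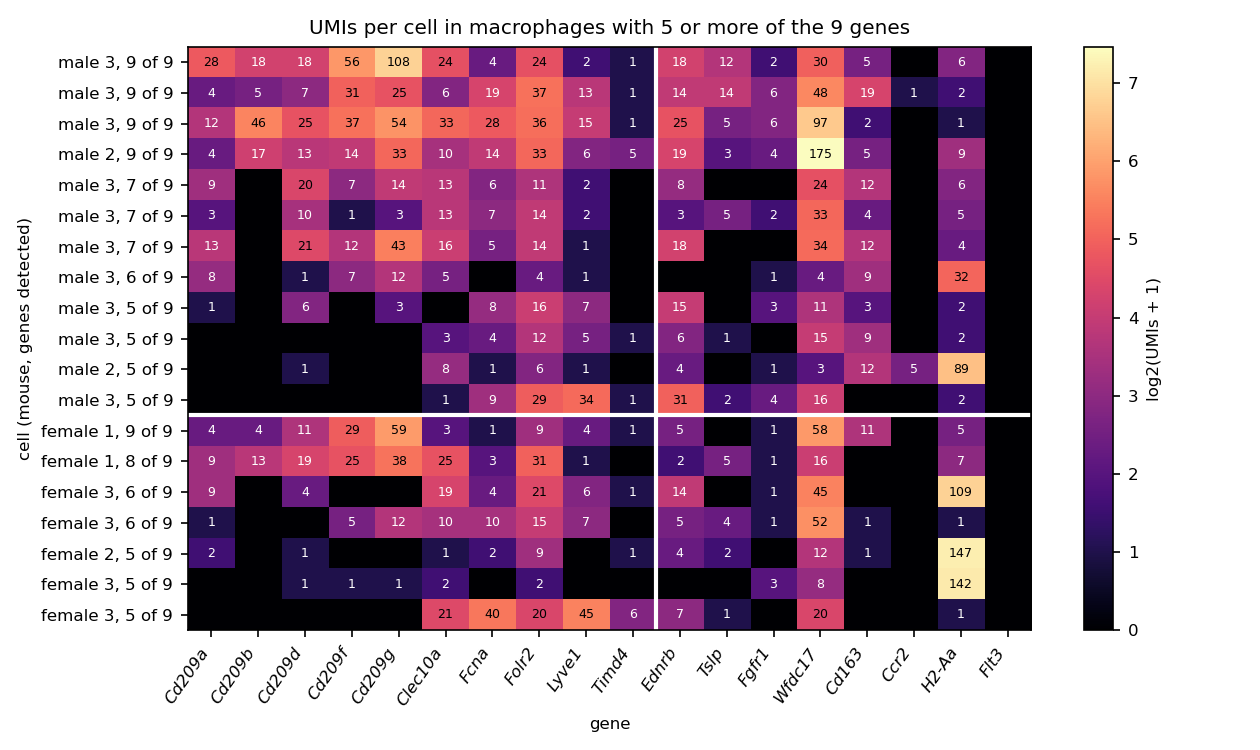
UMIs of the 10 genes (left of the vertical line) and of 8 genes outside the list (right) in each of the 19 macrophages with 5 or more of the 9 genes, 12 male above and 7 female below the horizontal line, with color as log2(UMIs + 1). The 5 cells with all 9 genes hold 25 to 108 UMIs of Cd209g, 5 to 25 of Ednrb and 1 to 9 of H2-Aa.

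What else set apart macrophages with 3 or more of the 9 genes was tested over all genes, with the members and the 3 C1q genes left out, since these chose the cells. Sums of 6 to 38 such cells per mouse (58151 to 465735 UMIs) were compared with sums of the other macrophages of the same 6 mice. By edgeR's quasi-likelihood test, 145 of 6397 genes were higher (2.27%) and 204 lower (3.19%). The cells chosen were deeper than the rest, and among cells with at least the median UMIs of all macrophages 254 genes were called. Without male 3, which gave 38 of the 88 cells, 174 genes were called, and without male 2, 223.

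Among genes called and higher in every mouse, Ednrb, the endothelin receptor B gene, had the largest fold. Its level was 97.7 to 321 CPM in the 6 sums of cells with 3 or more genes and 2.62 to 11.8 CPM in the other macrophages, with no overlap, and it was detected in 30 of 88 such cells (34.1%) against 3.29% of the others (fitted log2 fold change 5.28, SE 0.28). Of its 244 UMIs in the 88 cells, 198 (81.1%) came from the 19 cells with 5 or more genes, and the 69 cells with 3 or 4 genes had 46 UMIs in 13 cells (18.8%), 62.7 CPM pooled against 5.22 CPM in the other macrophages. The 19 cells also held 67.9% of the UMIs of Fgfr1, 58.2% of Wfdc17 and 53.5% of Tslp in the 88 cells. Tslp, the gene of an epithelial-type cytokine, was at 77.3 to 146 CPM against 7.58 to 19.2 CPM (3.15, SE 0.25). Wfdc17, of a small secreted protein with an antiprotease-type domain, was at 700 to 1924 CPM against 131 to 243 CPM (2.94, SE 0.19, edgeR adjusted p = 6.6e-11). The growth factor receptor gene Fgfr1 was at 32.1 to 94.1 CPM against 0 to 3.47 CPM (4.35). None of these 4 genes overlapped between the groups. They were picked among genes higher in every mouse, which favors such separation, and the share of all tested genes without overlap is not given. Serpinb1a (2.86), the chemokine gene Ccl8 (2.67), Emp1 (2.35), S100a4 (1.96), the glutathione transferase gene Mgst1 (1.90) and the sulfatase gene Sulf2 (1.89) completed the 10 genes with the largest positive log2 fold changes among those called and higher in 6 of 6 mice. The neutrophil genes Retnlg (3.36), S100a8 (2.71) and S100a9 (2.31) were called too but were not higher in every mouse, and are given below. Ccl8 was not called by edgeR with 4 or more of the 9 genes required, which left 4 sums (0.95, adjusted p = 0.21). Not every sum of the other macrophages reached the filter on low counts for Ednrb, Tslp, Fgfr1 and Serpinb1a. These passed it through the group where they were high, so their folds are read as sizes, without a test.

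Among genes called and lower in every mouse, those with the largest negative folds were low-count genes in these cells. Each had a sum at 0 CPM there, so they passed the filter on low counts through the other macrophages, and their folds are read as sizes. F11r, of a junctional adhesion molecule, had 1 UMI in the 88 cells against 325 in the other macrophages, a ratio of 0.0552 (95% counting interval 0.0014 to 0.309). Tspan33 had 2 UMIs and the glucose transporter gene Slc2a1 3, with ratios of 0.129 (0.0155 to 0.470) and 0.178 (0.0365 to 0.525). Bcl2a1a, of the BCL2 family, was better covered, with 24 UMIs in 6 of 88 cells against detection in 32.9% of the others (log2 fold change -2.63, SE 0.34, and -4.15 without male 3). Mir155hg (-2.08), Myc (-2.07), Cd69 (-2.02), Mkrn2 (-1.96), Olfml3 (-1.79) and Col14a1 (-1.78) were the others, each lower in 6 of 6 mice. Without male 3 the calls of Mir155hg, Myc, Cd69 and Mkrn2 were lost (adjusted p = 0.081, 0.081, 0.198 and 0.166), and that of Mkrn2 also with the mouse as a replicate block (adjusted p = 0.057).

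**Figure D4:**
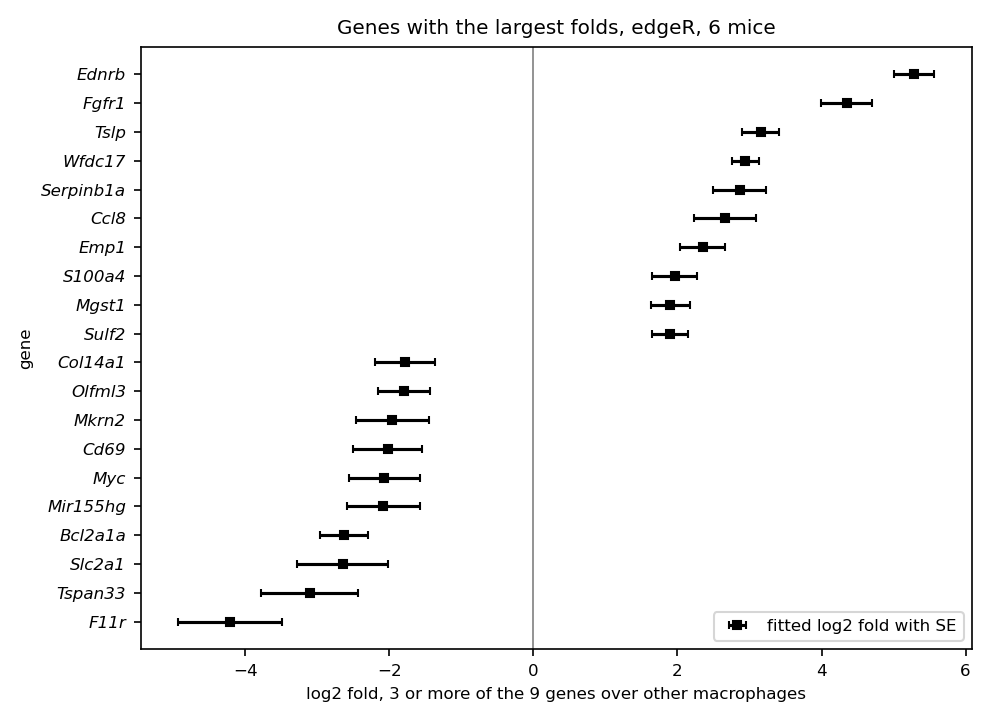
Fitted log2 fold change with its SE (edgeR, 6 mice) of the 10 genes with the largest positive and the 10 with the largest negative fold among those called and changed the same way in every mouse, for macrophages with 3 or more of the 9 genes over other macrophages. Ednrb is highest at 5.28 and F11r lowest at -4.21, which rests on 1 UMI and was -7.98 without female 3.

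Genes of resident macrophages were mostly higher in these cells and genes of MHC class II lower. The lists were chosen with earlier results of these data known, so the counts of list genes are descriptions. Of 18 listed resident macrophage genes 12 were higher and 6 did not pass, with a median log2 fold change of 0.59 against -0.023 over all genes tested. The 12 included Tslp, whose fold is read above as a size without a test. Also among them were Cbr2 (1.31), Ccl24 (1.23), F13a1 (1.14), the growth factor gene Igf1 (0.95) and Gas6 (0.76), which encodes a bridge between dying cells and their receptors. The scavenger receptor genes Cd163 (0.60), Colec12 (0.59) and Stab1 (0.48), and Selenop (0.55), were higher too. Mrc1 (0.17), Fcrls (0.088), Maf (0.25) and Pf4 (0.16) did not pass the threshold. Of 11 tested genes of monocyte-derived cells and MHC class II, 7 were lower, namely Ccr2 (-1.21), Cd52 (-1.21), H2-Eb1 (-1.12), H2-Aa (-1.05), H2-Ab1 (-1.04), Cd74 (-0.91) and H2-DMb1, and 2 were higher (S100a4 and Lgals3), with a median of -0.91. Cx3cr1, the fractalkine receptor gene, was lower as well (-0.79, SE 0.18, adjusted p = 0.0077). Among other lectins, Clec4n was higher (0.72) and Clec4b1 lower (-0.89) of 10 tested. The 8 dissociation genes had log2 fold changes of -0.63 (Egr1, adjusted p = 0.071) to 0.0093 (Jun).

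Markers of other cell types were read in the same sums. The 10 neutrophil markers summed to 710 to 24235 CPM in cells with 3 or more genes against 951 to 1069 CPM in the others, and Retnlg, S100a8 and S100a9 were called higher although they were higher in only 2, 1 and 2 of 6 mice. Without the cells of the neutrophil-like clusters, a setting chosen after seeing the data, the highest sum was 9015 CPM and 348 genes were called in place of 349. The 10 cDC2 markers summed to 587 to 1317 CPM against 478 to 996 CPM, and the 3 tested were at 0.66 (Cd24a), 0.26 (Mgl2) and -0.76 (H2-DMb2, adjusted p = 0.054). Flt3 was at 0 in all 88 cells, but few macrophages of any kind carried it, as given above. T and NK cell markers reached 117 CPM against 17.1, and B cell markers 433 against 376. Fibroblast markers were at 13.3 to 106 CPM against 41.8 to 147 CPM.

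Cd209a was higher in macrophages of the female mice than in those of the male mice. Its level, scaled by TMM factors, was 93.9, 56.6 and 90.1 CPM in female 1, 2 and 3 and 26.6, 41.2 and 24.9 CPM in male 1, 2 and 3, so that every female mouse was above every male mouse. The log2 fold change was 1.39 (SE 0.21, edgeR adjusted p = 0.010). The choice of members used no female value, but it used the male values that form an arm of this comparison. The p-value is therefore not independent of that choice. Of 8111 genes tested, 4 were higher in female macrophages (0.0493%), namely Cd209a, Retnla, Xist and Tsix, and 3 were lower (0.037%), the Y-linked Ddx3y, Eif2s3y and Uty. The call of Cd209a was lost without female 1 (adjusted p = 0.12), without female 3 (0.14) or without male 1 (0.15), with log2 fold changes of 1.27, 1.30 and 1.33. Cells of the cDC2-like cluster made up 4.15% to 4.23% of the cells of female mice and 1.63% to 2.91% of those of male mice, and the part of these cells in the Cd209a of macrophages was not tested. Within cDC2-like cells the order was not the same, with 1287 to 1424 CPM in female and 1382 to 1964 CPM in male mice.

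The other 9 members did not pass the test between the sexes by edgeR or DESeq2; at an unadjusted p under 0.05 were Cd209b and Clec10a. Cd209b was at 44.1, 26.3 and 38.6 CPM in female and 10.5, 23.6 and 18.0 CPM in male mice (log2 fold change 0.997, SE 0.24, edgeR adjusted p = 0.48). It was called without male 2 (1.21, adjusted p = 0.029) and without the filter on low counts (1.6e-04), a setting that also called Clec10a and Lyve1. The log2 fold changes of the others lay between -0.090 (Folr2) and 1.07 (Lyve1), and those of Cd209d, Cd209f, Cd209g, Fcna, Folr2, Lyve1 and Timd4 changed sign when 1 mouse was left out. Retnla, of the resistin-like family, was at 369, 16.3 and 148 CPM in female and 4.34, 11.5 and 6.08 CPM in male mice (fitted log2 fold change 4.57). Male 1 did not reach the filter on low counts for Retnla, so its fold is read as a size, without a test. Of the 18 genes listed for resident macrophages it was the 1 called. The paper, however, cites Retnla as an early gene of monocytes newly arrived in tissue.

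**Figure D5:**
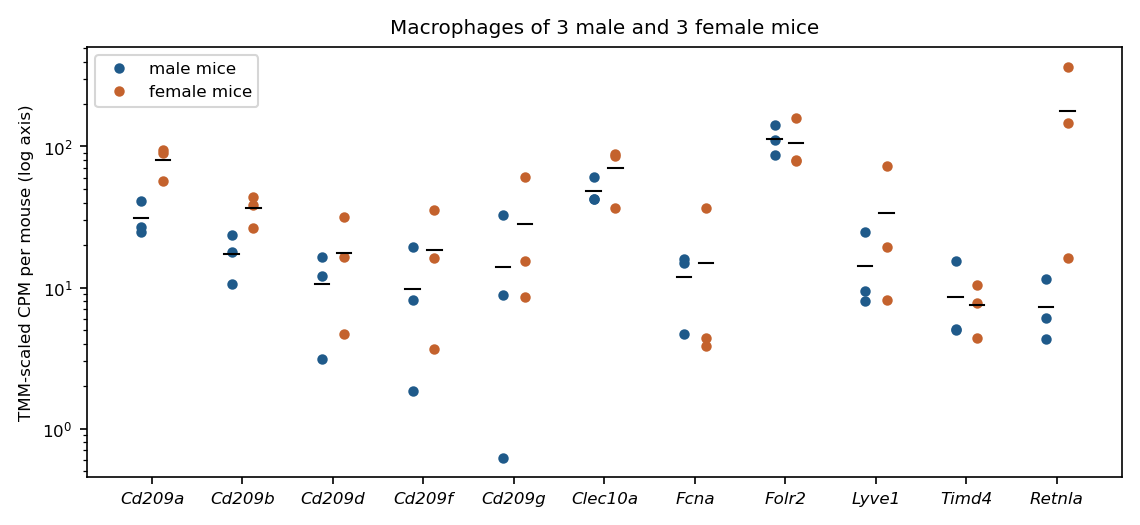
TMM-scaled CPM (log axis) of the 10 genes and Retnla in macrophages of each male (blue) and female (orange) mouse, with bars for means of 3. Cd209a lies at 56.6 to 93.9 CPM in female and 24.9 to 41.2 CPM in male mice, and Retnla at 16.3 to 369 CPM in female and 4.34 to 11.5 CPM in male mice.

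The genes whose levels most resembled those of Cd209a and of the 9 genes were sought over 39 sums of a cell type and a male mouse, among genes outside the list, by the Pearson correlation of log2(CPM + 1). For Cd209a they were Amz1 (r = 0.81), Wnt11 (0.76), Dapk1 (0.73), D930030I03Rik (0.73) and Flt3 (0.73). For the summed 9 genes they were Clec4b1 (0.87), Ctss (0.87), H2-DMb1 (0.86), Tbxas1 (0.86) and Batf3 (0.86). The sums share mice, a lane and the split into cell types, and depth differs between them, so the values order the genes and nothing more. Clec4b1 and H2-DMb1, alike to the 9 genes across cell types, were both lower within macrophages in the cells with 3 or more of them.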

How the data were processed

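Immune cells of DRG were profiled by 10x 3′ v3 with hashtags. The authors deposited raw UMI counts per gene, without normalization, for 4395 barcodes (Cell Ranger, mm10; header version 3.1.0) with hashtag counts, and for 2668 filtered male cells. Cells with 200 to 5000 detected genes and a mitochondrial share below 5% were kept, as in the study, and HTODemux (quantile 0.99) left 3741 singlets, 2668 of them the deposited cells; a hashtag was taken as a mouse, as nothing else in the labels separates the animals. Cells were clustered in Seurat 5.3.0 (15 principal components, resolution 0.5, without the members, Xist and Y-linked genes). A cluster was named with at least 3 markers raised (in 20% of cells, log2 fold of 1), 2 ahead of the next list, a rule written after clusters were seen.

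Counts were summed per mouse and group and tested with edgeR 4.0.16 (R 4.3.3; TMM, filterByExpr, quasi-likelihood, Benjamini-Hochberg over all genes tested, threshold 0.05), checked on simulated data; DESeq2 1.42.0 was an alternative. Both sums of a mouse come from the same animal, and deviated together (r = 0.065 to 0.113 across the gate, 0.069 to 0.216 for the 9 genes). Genes named in the text are the members, list genes, and the 10 with the largest fold in each direction among genes called and changed alike in every mouse. The members and lists were chosen with earlier results of these data known. Levels are CPM of the sum. All cells shared 1 lane, so p-values measure the spread between the mice of this run.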

Additional observations from a re-analysis of the deposited data

How the results depend on the processing

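Across the gate in female mice 3734 genes were called, and all 9 alternatives (DESeq2, no filter, gates of 0.25% and 1%, doublets removed, each mouse left out, the mouse as a replicate block) gave counts within 1.5 times (2932 to 4625). The replicate block gave 3735, and 342 in place of 349 for the 9 genes. Of the members and named genes it changed only the calls of Cd209d and Mkrn2, and both folds are read as sizes. No paired analysis was possible between the sexes because each mouse is in 1 group. The count for macrophages with 3 or more of the 9 genes was 600 without the filter on low counts, 200 with 4 or more genes (which left 4 sums), and 174 to 330 with a mouse left out (174 without male 3, 223 without male 2). Between the sexes 104 genes were called without the filter and 5 to 66 with a mouse left out (66 without male 2), in place of 7. The cause was not tested, other than that fewer sums or more genes entered these fits. Cells with 3 or more of the 9 genes fell to 20 male and 8 female with 2 UMIs needed per gene, to 15 and 8 after thinning, and to 20 and 9 with 4 or more genes, which follows from the stricter count. With a mouse left out they were 22 to 53 in male and 14 to 22 in female mice. The difference in their share between the sexes, 0.698, ranged from -0.177 (without female 3) to 1.55 with a mouse left out, a setting chosen after seeing the data. For Timd4 the fold across the gate (0.015) was -0.044 at a gate of 0.25%, -0.012 with the replicate block, and -0.405 (without female 3) to 0.27 with a mouse left out. Between the sexes, with a mouse left out, folds ranged from -0.15 to 1.01 for Cd209d, -0.36 to 1.60 for Cd209f, -0.60 to 2.21 for Cd209g (each lowest without female 1), -1.51 to 0.92 for Fcna, -0.28 to 1.93 for Lyve1, -0.24 to 0.57 for Timd4 and -0.53 to 0.14 for Folr2 (each lowest without female 3). Timd4 was -0.052 by DESeq2. For the 20 named genes of the 9-gene comparison, 289 values under alternatives kept call and direction and 24 lost the call, 10 of them with 4 or more genes. At resolution 0.3 no cluster took the cDC2 name, so its levels rest on resolutions 0.5 and 0.8.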
